A study of Mus musculus with 6 samples.

Results

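The 10 genes described here encode Sox transcription factors: Sox21, Sox2, Sox4, Sox6, Sox7, Sox9, Sox12, Sox13, Sox15 and Sox18. They were taken by symbol from a count table of 23420 mouse genes, and all 10 symbols were found. The set was drawn up with earlier results of these data known, so counts of its members past a test are a description. The table holds 20 genes of the Sox family in all, so 10 family members (among them the well-expressed Sox11) lie outside the set. The libraries were mRNA libraries of cultured mouse epidermal keratinocytes, the cells of the outer layer of skin. The 3 libraries labelled WT came from K14CreERT2-;Gata6 fl/fl cells, which carry loxP-flanked Gata6 alleles and no Cre recombinase. The 3 libraries labelled iKO came from K14CreERT2+;Gata6 fl/fl cells, in which the keratin 14 promoter, active in basal keratinocytes, drives a Cre that 4-hydroxytamoxifen switches on. Both groups were grown in low-calcium medium, taken at passage 8 to 10 and given 1 µM 4-hydroxytamoxifen for 6 hours. Libraries are named by group and number (WT 2, 3 and 4; iKO 3, 4 and 33); no label ties them to separate cultures or mice, and p-values therefore reflect library-to-library spread that may be technical only.

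Sox factors bind DNA through an HMG box, a domain that sits in the minor groove and bends the helix, and they mostly act together with partner factors. The family is divided into groups by sequence: Sox2 (an activator of progenitor genes) and Sox21 (mainly a repressor) belong to SoxB, Sox4, Sox11 and Sox12 to SoxC, Sox5, Sox6 and Sox13 to SoxD, Sox9 to SoxE, Sox7, Sox17 and Sox18 to SoxF, and Sox15 stands alone in SoxG. In skin, Sox9 is known for its part in hair follicle stem cells and the outer root sheath, Sox21 for the hair shaft cuticle, where its loss in mice causes hair loss, and Sox2 for the dermal papilla and Merkel cells.

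Read depth ran from 21943467 gene counts in WT 2 to 83337263 in iKO 33, so that 1 count was worth between 0.0118 and 0.0461 normalised CPM (counts scaled by library size, the unit of all levels below unless another is named). The keratinocyte identity of the cells was plain in every library: the summed level of 10 keratinocyte markers was 35700 to 50000 CPM in the libraries labelled WT and 38400 to 55000 in those labelled iKO. The check of the targeted gene went against the labels, since Gata6 measured 2.92 ± 2.43 CPM in WT and 17.4 ± 3.44 in iKO (SD, n = 3). The WT libraries ranged from 0.519 to 5.37 CPM, all below every iKO library. The edgeR test used below did not call this difference (log2 fold change 2.60, SE 0.72, adjusted p = 0.18). Gene counts do not show which exons the reads covered. Directions below are therefore those of the libraries labelled iKO against those labelled WT. Sex-linked transcripts also split with the label: Xist was at 605 CPM or more in each WT library and at 2.62 or less in each iKO library, and Ddx3y at 0.138 or less against 28.0 or more. Sex of the cells and genotype label cannot be told apart as sources of any difference reported here.

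The 3 genes whose groups did not overlap are Sox21, Sox2 and Sox12, and the 250 bases before the RefSeq start of each are shown because the labels name a GATA-binding factor as the target and because Sox2 and Sox21 are themselves Sox proteins. Sequences are from RefSeq on GRCm38.p6, the assembly also called mm10, 5′ to 3′ on the strand of the gene: Sox21 at chr14:118237031-118237280 (minus strand), Sox2 at chr3:34649745-34649994 (plus strand) and Sox12 at chr2:152398047-152398296 (minus strand). Gene positions given further on are those of GENCODE, whose start equals the RefSeq start for Sox21, lies downstream of it for Sox2 and lies slightly upstream of it for Sox12. Capitals mark matches, on either strand, to the GATA letters AGATAA or TGATAA or to the Sox core letters ACAAAG or ACAATG.
Sox21: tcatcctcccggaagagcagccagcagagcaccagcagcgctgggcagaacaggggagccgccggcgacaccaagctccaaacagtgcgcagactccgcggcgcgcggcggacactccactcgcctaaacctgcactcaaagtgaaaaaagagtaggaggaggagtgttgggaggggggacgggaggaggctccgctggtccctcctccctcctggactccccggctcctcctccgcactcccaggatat
Sox2: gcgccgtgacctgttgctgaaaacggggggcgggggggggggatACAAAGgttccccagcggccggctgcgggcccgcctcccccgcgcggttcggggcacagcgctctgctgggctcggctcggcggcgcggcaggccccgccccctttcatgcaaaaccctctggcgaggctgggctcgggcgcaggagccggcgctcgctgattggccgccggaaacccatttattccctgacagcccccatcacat
Sox12: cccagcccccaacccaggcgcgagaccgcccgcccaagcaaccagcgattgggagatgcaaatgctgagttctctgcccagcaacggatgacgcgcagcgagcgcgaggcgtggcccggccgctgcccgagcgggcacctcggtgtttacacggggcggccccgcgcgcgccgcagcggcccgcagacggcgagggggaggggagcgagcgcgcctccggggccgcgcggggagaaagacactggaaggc

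No GATA match was found in these 3 windows, and 1 Sox match was found, in Sox2. Of 32851 RefSeq windows of this length, 16.6% hold a GATA match and 25.2% a Sox match, so that these letters are common and their absence from 250 bases says nothing about binding elsewhere. The windows of Sox21, Sox2 and Sox12 are rich in G and C (65.2%, 72.0% and 74.4%), against a median of 52.4% over all windows, and hold 17, 27 and 35 CG pairs against a median of 6.

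Of the 10 genes, 9 had enough counts to be tested, and 1 of them, Sox21, passed the quasi-likelihood test of edgeR with Benjamini-Hochberg adjustment across all 12672 tested genes. Over all genes tested 0.339% passed. Unadjusted p-values under 0.05 were reached by 4 of the 9 (Sox21, Sox12, Sox2 and Sox6) against 15.0% of all genes, and the groups did not overlap for 3 of the 9 against 21.9%. DESeq2 called 3 of the 9 (Sox21, Sox2 and Sox12) against 5.57% of the genes it tested. The 9 genes did not share a direction: 5 had a lower and 4 a higher value in iKO, with a median log2 fold change of -0.07 against 0.01 over all tested genes, of which 48.8% had a lower value. Sox18 was not tested, and Sox7 met the count minimum in only 1 WT library but in all 3 iKO libraries, so its place among the tested genes depended on the iKO group. The counts are from bulk cultures, in which fewer cells expressing a gene and less RNA per cell cannot be told apart.

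**Figure D1:**
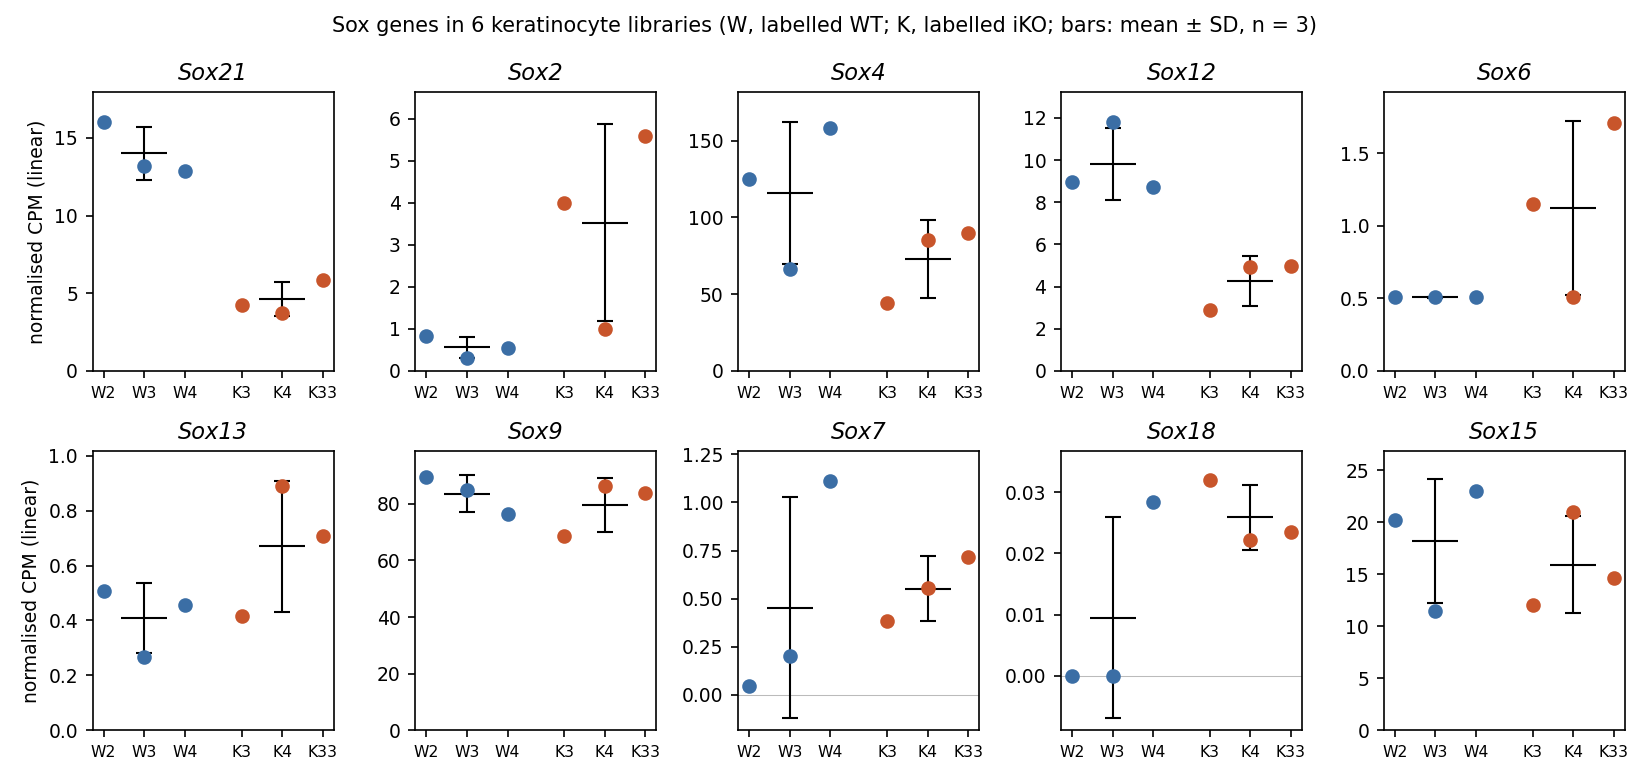
Normalised CPM (linear axes, each with its own scale) of the 10 Sox genes in the 3 libraries labelled WT (W, blue) and the 3 labelled iKO (K, orange); horizontal marks and bars are the mean ± SD, n = 3. Sox21 and Sox12 lie lower in every K library than in any W library, Sox2 lies higher, and the other 7 overlap.

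**Figure D2:**
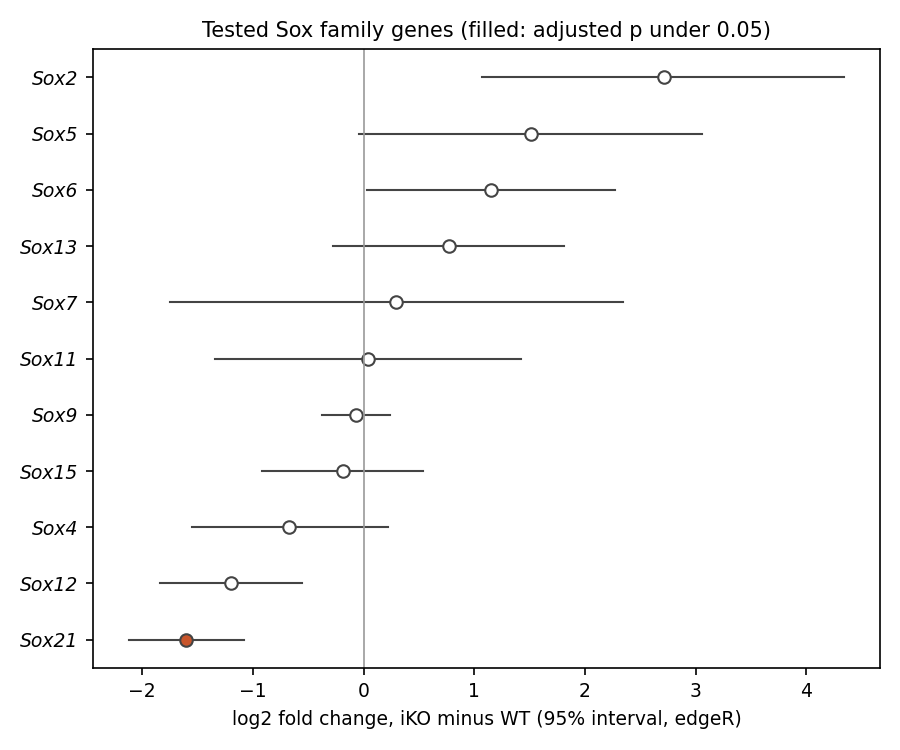
Log2 fold change (iKO minus WT) with its 95% interval from the edgeR fit for the 11 tested genes of the Sox family, which are the 9 tested genes of the set plus Sox5 and Sox11. Sox21, at -1.60, is the filled point that passed the adjusted threshold, and Sox2 lies farthest to the other side at 2.71.

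Sox21 transcripts fell in the libraries labelled iKO. Sox21 (ENSMUSG00000061517.8; chromosome 14, 118233232 to 118237030, minus strand, a single exon of 3799 bases) measured 16.0, 13.2 and 12.9 CPM in WT 2, 3 and 4, and 4.25, 3.73 and 5.85 CPM in iKO 3, 4 and 33. The lowest WT library was 2.21-fold above the highest iKO library, and libraries within a group differed by at most 1.57-fold. The group values were 14.0 ± 1.70 and 4.61 ± 1.10 CPM (SD, n = 3). The log2 fold change was -1.60 (SE 0.22, 95% interval -2.12 to -1.08), a 3.03-fold fall, with an edgeR adjusted p of 0.0486. Sox21 was thus the last of the 43 called genes when ranked by p. Counts behind it were ample, 1844 in all in WT and 798 in iKO.

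The size of the Sox21 difference was steady and its call was not. With each library left out in turn the log2 fold change stayed between -1.81 and -1.47, while the adjusted p rose to between 0.076 and 0.229, so the call was lost whichever library was left out. In DESeq2 the adjusted p was 1.42e-08, and in the authors' deposited table Sox21 has a log2 fold change of -1.38 (SE 0.21) with an adjusted p of 1.05e-08. That table comes from the same libraries. How its fold changes were estimated is not given in the sources used here, so their sizes cannot be set against those of edgeR. On the opposite strand, the annotation places Gm4675 over 713 exonic bases of Sox21. Gm4675 has no row in the count table and the strand setting is not given in the sources used here, so reads of the antisense gene cannot be told apart from those of Sox21.

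Genes around Sox21 did not show a difference of that size. Of 6 tested genes that start within 1 Mb, 3 had lower and 3 higher values in iKO, with a median log2 fold change of -0.11, and none passed in edgeR (1 had an unadjusted p under 0.05). The nearest, Gpr180 and Tgds, start 99.9 and 104 kb away and stood at -0.43 (SE 0.16) and -0.29 (SE 0.14), both with groups that did not overlap. Over all tested genes, 15.0% had an unadjusted p under 0.05 in edgeR and 21.9% had groups that did not overlap. Farther away, on the other side, Abcc4 (a drug and nucleotide exporter) stood at 0.15 (SE 0.17), Dzip1 at 0.32 (SE 0.42), the chaperone gene Dnajc3 at 0.07 (SE 0.11) and Uggt2 (a glucosyltransferase of glycoprotein folding) at -0.76 (SE 0.38). The 402 tested genes of chromosome 14 had a median of 0.10. Dct, a melanocyte gene that also neighbours Sox21 on the chromosome, had no count in any library.

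**Figure D3:**
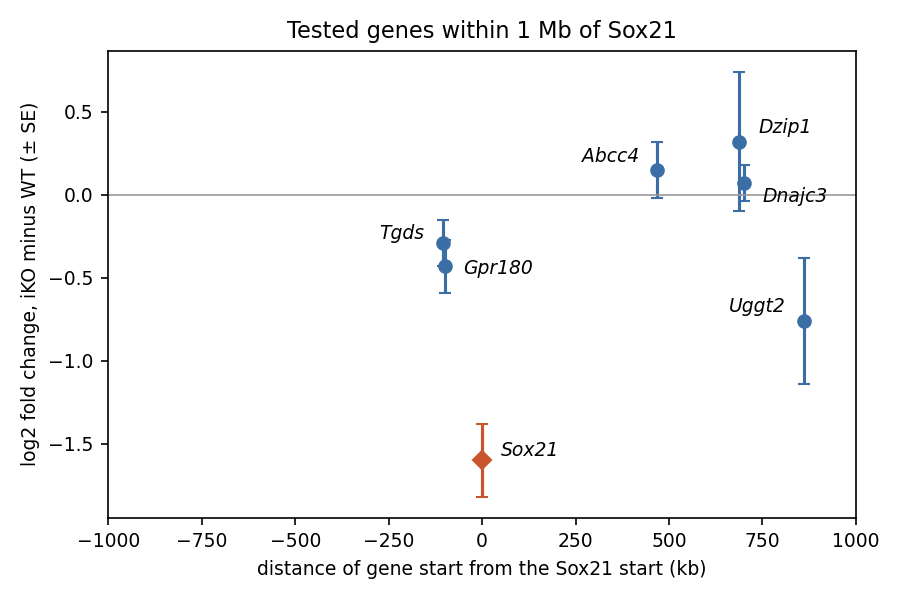
Log2 fold change (iKO minus WT, ± SE from the edgeR fit) of the tested genes within 1 Mb of Sox21, against the distance of their start from the Sox21 start in kb. Sox21 (diamond) is at -1.60 and the 6 neighbours (circles) lie between -0.76 and 0.32.

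The 5 genes whose pattern over the 6 libraries lay closest to that of Sox21, by the root mean square difference of centred log2 CPM among 10089 candidates, were Ppargc1b, Nudt7, Mid1, Col16a1 and Serpinb10. Ppargc1b, a coactivator of mitochondrial and lipid genes, was nearest with a root mean square difference of 0.154: it measured 4.65 to 4.75 CPM in WT and 1.31 to 1.71 in iKO. Nudt7, a peroxisomal hydrolase of coenzyme A, followed with 0.227, and Mid1 (a ubiquitin ligase gene on the X chromosome), Col16a1 (a collagen) and Serpinb10 (a serpin) with 0.234, 0.245 and 0.268. Their log2 fold changes lay between -1.89 and -1.50, and none of the 5 passed in edgeR (adjusted p from 0.0546 to 0.101). These genes were ranked over the same libraries that define the Sox21 pattern, so the likeness is a description of them.

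Sox2, the other SoxB gene, had the opposite direction. Sox2 (chromosome 3, 34650405 to 34652461, a single exon) measured 0.830, 0.317 and 0.540 CPM in WT 2, 3 and 4, and 4.00, 1.00 and 5.60 CPM in iKO 3, 4 and 33. All 3 iKO libraries were above all WT libraries, but iKO 4 was only 1.20-fold above WT 2, and the iKO libraries differed from each other by 5.60-fold. Its log2 fold change of 2.71 (SE 0.69, 95% interval 1.07 to 4.34) failed the edgeR threshold (adjusted p = 0.163). DESeq2 called it (adjusted p = 0.00147). Counts were 62 in all in WT and 646 in iKO. Without iKO 33 the value was 2.19, and without iKO 4 it was 3.15. The authors' deposited table gives Sox2 a log2 fold change of 1.23 (SE 0.30) with an adjusted p of 0.00262. As said for Sox21, how its fold changes were estimated is not given, so they may not be on the scale of edgeR. They were also smaller for Sox5 (0.66 against 1.51 in edgeR) and Sox6 (0.63 against 1.15), and equal for the well-expressed Sox9 (-0.07).

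The long non-coding RNA Sox2ot, in an intron of which Sox2 lies, showed no detectable difference. Sox2ot had 7 to 15 counts per library and a log2 fold change of -0.07 (SE 0.77, edgeR adjusted p = 0.978). The annotation gives the pair no exonic base in common.

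Because Sox2 is a marker of Merkel cells and of the dermal papilla, other genes of those cells were read beside it. Of 8 Merkel cell markers 2 were tested, Krt8 and Krt18, simple-epithelium keratins that are not restricted to Merkel cells. Krt8 measured 26.3, 10.7 and 47.5 CPM in WT 2, 3 and 4 and 129, 491 and 105 in iKO 3, 4 and 33. Krt18 stood at 3.73 on the log2 scale (SE 0.98). In edgeR neither was called (adjusted p = 0.158 and 0.170), while DESeq2 called both (adjusted p = 0.022 and 0.0195). Over all genes that DESeq2 tested, 5.57% were called. Krt8 was highest in iKO 4, where Sox2 was lowest among the iKO libraries. The summed level of the 8 markers was 11.5 to 57.3 CPM in WT and 134 to 583 in iKO, nearly all of it Krt8 and Krt18. Atoh1, the defining factor of Merkel cells, had no count in any library, and Isl1, Pou4f3 and Insm1 had 13, 4 and 10 counts over all 6. Krt20, a keratin of Merkel cells with 106 counts and too few to be tested, lay the other way from Krt8 and Krt18, at 0.645, 0.127 and 1.65 CPM in WT 2, 3 and 4 and 0.0959, 0.156 and 0.165 in iKO 3, 4 and 33, with overlapping groups. The part of Merkel cells in the Sox2 values was not tested. The 8 dermal papilla markers summed to 138 to 202 CPM in WT and 57.1 to 134 in iKO, most of it the matrix proteoglycan gene Vcan. Of these 8 markers 2 were tested, 1 with a lower value (Vcan, -0.60, SE 0.33) and 1 with a higher one (Corin, a membrane protease gene, 0.47, SE 0.50), and neither reached an unadjusted p under 0.05. Crabp1, a retinoic acid binding protein gene with 98 counts, was not tested and had means of 0.0796 CPM in WT and 0.539 in iKO with overlapping groups. Fgf7, a growth factor gene with 41 counts, was not tested either and had 0.199 against 0.0586. The groups of Vcan and of Fgf7 did not overlap, both with lower values in iKO. Over all tested genes, groups did not overlap for 21.9%. Of the other papilla markers, Rspo3 had no count, Alx4 had 7 counts and Alpl 4 over all libraries.

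Per kilobase of exon, a scale on which genes can be compared, the balance of the SoxB genes turned over. Sox21 stood at 3.41 to 4.21 normalised CPM per kb in WT and at 0.983 to 1.54 in iKO, and Sox2 at 0.154 to 0.403 in WT and at 0.486 to 2.72 in iKO. The ratio of Sox21 to Sox2 was 10.4, 22.6 and 13.0 in WT 2, 3 and 4 and 0.576, 2.02 and 0.565 in iKO 3, 4 and 33. Sox21 was thus the more abundant of the pair in all WT libraries and in iKO 4, and Sox2 in iKO 3 and iKO 33. The ratio carries the differences of both genes described above and was not tested on its own.

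**Figure D4:**
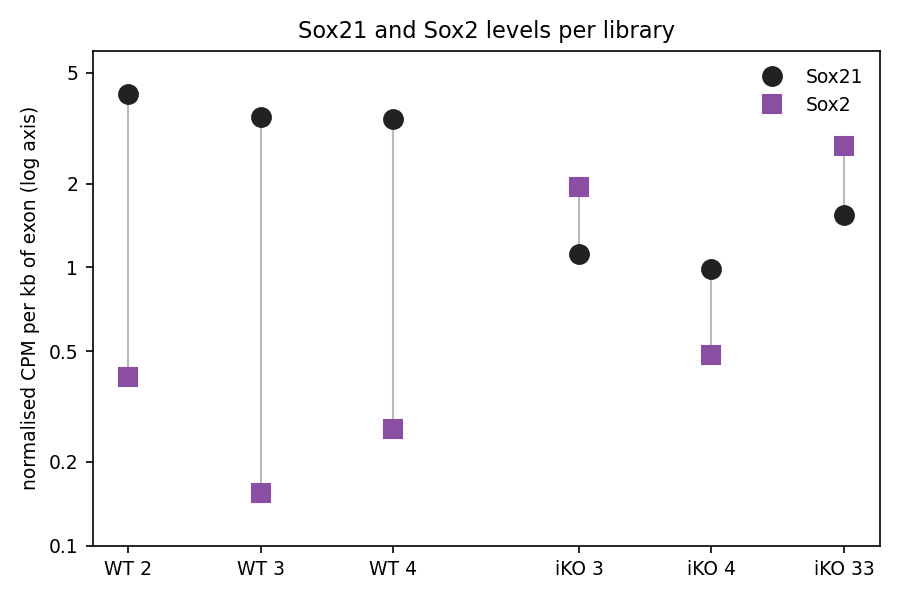
Sox21 (circles) and Sox2 (squares) in each library as normalised CPM per kb of exon on a log axis, joined by a line within a library. The line spans a ratio of 10.4 or more in the WT libraries, and in iKO 3 and iKO 33 the square lies above the circle.

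Among the SoxC genes, which are best known from embryonic and progenitor cells, Sox12 lay lower in every iKO library and Sox4 and Sox11 varied with the library. Sox12 (chromosome 2, 152393611 to 152398063, a single exon) measured 8.94, 11.8 and 8.70 CPM in WT 2, 3 and 4, and 2.88, 4.91 and 4.98 CPM in iKO 3, 4 and 33. The lowest WT library was 1.75-fold above the highest iKO library. Its log2 fold change of -1.20 (SE 0.27, 95% interval -1.84 to -0.56) missed the edgeR threshold (adjusted p = 0.132). In DESeq2 Sox12 was called (adjusted p = 0.00175). It stayed between -1.33 and -0.99 when single libraries were left out. The authors' deposited table lists -0.98 (SE 0.23) for Sox12 with neither a p-value nor an adjusted p-value, so it holds no call for this gene. The reason is not given, and Sox18, at a mean signal of 0.772 against 307 for Sox12, does have a p-value there.

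Sox4 (chromosome 13, 28948919 to 28953713, a single exon) measured 125, 66.2 and 158 CPM in WT 2, 3 and 4 and 44.1, 85.2 and 90.1 in iKO 3, 4 and 33. The groups overlapped, because WT 3 lay below iKO 4 and iKO 33. Its log2 fold change of -0.67 (SE 0.37, 95% interval -1.55 to 0.22) did not pass in edgeR (adjusted p = 0.454). An antisense gene, Gm26735, covers 2616 of the 4795 exonic bases of Sox4 in the annotation and has no row in the count table. Sox11, which is not among the 10 genes, shared with Sox4 the highest library (WT 4) and the lowest library of each group (WT 3 and iKO 3): 36.3, 22.8 and 67.4 CPM in WT and 13.9, 60.3 and 55.5 in iKO (log2 fold change 0.04, SE 0.58, edgeR adjusted p = 0.981). Sox12 shared only the lowest iKO library (iKO 3), as within WT it was highest in WT 3 and lowest in WT 4. Per kilobase, Sox12 made up 4.55% to 13.8% of the summed SoxC level in WT and 4.21% to 5.61% in iKO.

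The lowest values of several Sox genes fell in the same library of each group. WT 3 was the lowest WT library for 7 of the 11 tested family genes (Sox2, Sox4, Sox5, Sox6, Sox11, Sox13 and Sox15), and iKO 3 the lowest iKO library for 8 of the 11. Over all tested genes WT 3 was lowest in its group for 39.0% and iKO 3 for 36.3%. For Sox21 the lowest libraries were WT 4 and iKO 4.

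Of known or proposed SoxC target genes, a list of 5, none passed in edgeR, 4 had higher values and 1 lower (median 0.21), 2 reached an unadjusted p under 0.05, and 1 was called by DESeq2. For this and the other short lists, the shares over all tested genes were 15.0% at that unadjusted p and 5.57% in DESeq2. Dbn1, an actin-binding protein gene, measured 18.1 ± 14.1 CPM in WT and 51.2 ± 9.67 in iKO (SD, n = 3; 1.50, SE 0.55) and is the gene that DESeq2 called. Ezh2, a histone methyltransferase gene, measured 136 ± 31.2 and 87.0 ± 13.2 CPM (-0.64, SE 0.20). Tubb3 (a neuronal tubulin) and Fscn1 (an actin bundler) stood at 0.29 (SE 0.37) and 0.17 (SE 0.37).

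The SoxD genes Sox6 and Sox13, whose proteins lack an activation domain of their own and pair through a coiled coil, were near the lower limit of what these libraries measure. Sox6 (chromosome 7, 115470872 to 116038796) measured 0.507, 0.507 and 0.512 CPM in WT 2, 3 and 4, from 11, 40 and 18 counts, and 1.15, 0.511 and 1.71 in iKO 3, 4 and 33. In iKO 4 it was at the WT level, and in the other iKO libraries above it. A log2 fold change of 1.15 (SE 0.48) resulted, which failed in edgeR (adjusted p = 0.324) and was 0.69 without iKO 33 and 1.50 without iKO 4. Sox13 (chromosome 1, 133382303 to 133424377) measured 0.507, 0.266 and 0.455 CPM in WT and 0.416, 0.889 and 0.706 in iKO, with overlapping groups (0.77, SE 0.44, adjusted p = 0.466). Sox5, the third SoxD gene and not among the 10, stood at 1.51 (SE 0.66, adjusted p = 0.346). All 3 SoxD genes thus had higher values in iKO and none passed in edgeR or in DESeq2. Unadjusted p-values of the 3 were 0.0460, 0.126 and 0.0543.

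Sox9, the SoxE gene, was among the best expressed of the set and differed little between groups. Sox9 (chromosome 11, 112782224 to 112787760, 3 exons) measured 89.6, 84.8 and 76.5 CPM in WT 2, 3 and 4 and 68.7, 86.4 and 83.8 in iKO 3, 4 and 33. The group values were 83.6 ± 6.62 and 79.6 ± 9.57 CPM (SD, n = 3), and all libraries lay within 1.26-fold of each other in their group. The log2 fold change was -0.07 (SE 0.13, edgeR adjusted p = 0.847), with a 95% interval of -0.38 to 0.24. That interval holds the Sox9 difference well inside the size seen for Sox21. The related SoxE genes Sox8 and Sox10 had 6 and 2 counts over all libraries.

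Cartilage genes that Sox9 drives together with Sox5 and Sox6 in chondrocytes were at low levels. Of 11 such genes 4 were tested, 3 with higher and 1 with lower values (median 0.77); none passed in edgeR, 2 reached an unadjusted p under 0.05, and DESeq2 called 0. Their summed level was 3.15 to 4.06 CPM in WT and 5.62 to 7.00 in iKO. Col9a3 and Col27a1, both collagen genes, stood at 1.29 (SE 0.49) and 1.01 (SE 0.36), Col2a1, the main cartilage collagen gene, at 0.53 (SE 0.43), and Col11a2 at -0.21 (SE 0.55). Acan, which encodes the cartilage proteoglycan aggrecan, had no count in any library, and the collagen gene Col11a1, with 42 counts and not tested, had means of 0.0137 CPM in WT and 0.201 in iKO with groups that did not overlap.

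The SoxF genes are known from blood and lymphatic vessels, and they were scarce here. Sox7 (chromosome 14, 63943673 to 63950732) measured 0.0461, 0.203 and 1.11 CPM in WT 2, 3 and 4, from 1, 16 and 39 counts, and 0.384, 0.555 and 0.718 in iKO 3, 4 and 33. WT 4 was above every iKO library and the other WT libraries below every one. The log2 fold change was 0.29 (SE 0.87, adjusted p = 0.912); it rested on WT 4, without which it was 1.90, and turned to -0.18 without WT 2 and to -0.12 without WT 3. Sox18 (chromosome 2, 181669836 to 181671640), which is mutated in ragged mice with defects of coat and vessels, had 0, 0 and 1 counts in WT 2, 3 and 4 and 1, 1 and 2 in iKO 3, 4 and 33. Every library was under 3 counts, the level that a count of 0 allows, which corresponds to 0.0353 to 0.138 CPM for counting error only, so no difference in Sox18 was detectable at this depth. Sox17 had no count in any library. Of 10 endothelial markers 5 were tested, all 5 with lower values in iKO (median -0.58), none past edgeR or DESeq2, and 1 (Vwf, -1.55, SE 0.43) with an unadjusted p under 0.05. Their summed level was 18.8 to 25.3 CPM in WT and 14.3 to 17.5 in iKO, mostly Kdr and Egfl7. Kdr, a receptor of vascular growth factor, stood at -0.76 (SE 0.37), Pecam1, the CD31 gene, at -0.47 (SE 0.45) and Tie1 at -0.58 (SE 1.07). Pecam1 was detected in every library, with means of 2.53 CPM in WT and 1.80 in iKO, whereas the defining markers Cldn5 and Emcn had no count and Cdh5 had 1.

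Sox15, the SoxG gene, known from placenta and muscle progenitors, was well expressed in both groups. Sox15 (chromosome 11, 69655314 to 69656727, 2 exons) measured 20.2, 11.5 and 23.0 CPM in WT 2, 3 and 4 and 12.0, 21.0 and 14.6 in iKO 3, 4 and 33. The groups overlapped throughout. The log2 fold change was -0.19 (SE 0.31, 95% interval -0.92 to 0.54, adjusted p = 0.820). Its neighbour Mpdu1 overlaps 31 exonic bases of Sox15 on the other strand.

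Ordered by level per kilobase, Sox4 (24.3 ± 9.66 normalised CPM per kb), Sox15 (21.2 ± 6.95) and Sox9 (20.2 ± 1.60) led in WT (SD, n = 3), and their libraries overlapped. Sox21 (3.70 ± 0.447) and Sox12 (2.20 ± 0.382) followed without overlap between them, then Sox2 (0.273 ± 0.125), Sox7 (0.137 ± 0.174), Sox13 (0.0949 ± 0.0294) and Sox6 (0.0343 ± 0.000195). Sox2, Sox7 and Sox13 overlapped from one to the next, and Sox6 lay below all of Sox13. In iKO the order was Sox9 (19.2 ± 2.31), Sox15 (18.5 ± 5.39), Sox4 (15.2 ± 5.27), Sox2 (1.72 ± 1.14), Sox21 (1.21 ± 0.290), Sox12 (0.956 ± 0.268), Sox7 (0.167 ± 0.0506), Sox13 (0.155 ± 0.0553) and Sox6 (0.0757 ± 0.0403). The first 3 again overlapped, and so did Sox2, Sox21 and Sox12, as well as Sox7, Sox13 and Sox6 from one to the next. Sox18 came last in both groups, at 0.00585 ± 0.0101 and 0.0160 ± 0.00327, below 3 counts in every library. Lengths are those of all annotated exons merged, so levels of Sox6 and Sox13, which have 16 and 5 annotated transcripts, are low estimates where a shorter form is used. Sox21 made up 3.69% to 6.11% of the summed level of the family in WT and 1.34% to 2.46% in iKO.

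**Figure D5:**
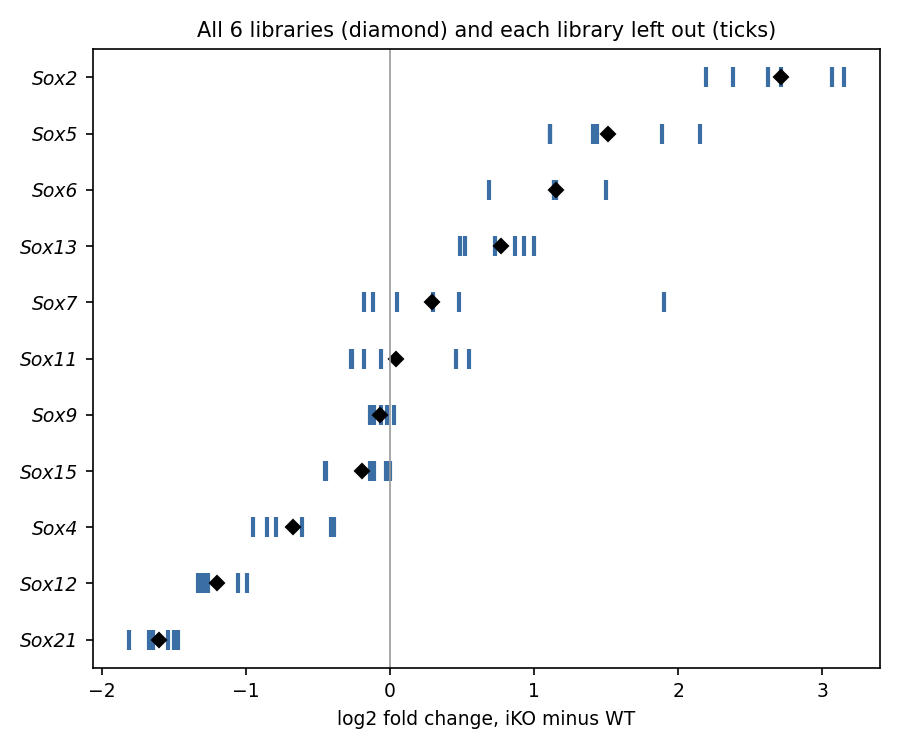
Log2 fold change (iKO minus WT) of the 11 tested family genes with all 6 libraries (diamonds) and with each library left out in turn (ticks). Sox21, Sox12 and Sox4 stay below 0 and Sox2, Sox5, Sox6 and Sox13 above it in these fits, while the ticks of Sox7, Sox9 and Sox11 fall on both sides and those of Sox15 reach 0.

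Transcription factors of the hair follicle, the setting in which Sox9 and Sox21 are known in skin, were read from a list of 30 genes, of which 26 were tested. In edgeR none passed; 15 had lower and 11 higher values in iKO (median -0.21), 6 of the 26 had an unadjusted p under 0.05 (5 lower, 1 higher) against 15.0% of all tested genes, and DESeq2 called 3 against 5.57%. Tbx1, a T-box factor of hair follicle stem cells, measured 10.8, 9.46 and 6.40 CPM in WT 2, 3 and 4 and 2.17, 0.667 and 0.930 in iKO 3, 4 and 33 (-2.85, SE 0.48, edgeR adjusted p = 0.0731). Trp63, the p63 gene of basal keratinocytes, was lower in every iKO library than in any WT library (-0.68, SE 0.10, adjusted p = 0.0529). Foxn1, the nude locus gene of hair shaft and keratinocyte differentiation, measured 14.0 ± 4.66 CPM in WT and 35.9 ± 19.9 in iKO (SD, n = 3; 1.36, SE 0.42, adjusted p = 0.217). These are the 3 that DESeq2 called. Gli2, a Hedgehog effector, stood at -0.45 (SE 0.17, adjusted p = 0.277). Lhx2, a stem cell factor of the follicle, had 17 counts over all libraries and was not tested.

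Most genes of the hair shaft itself, where Sox21 acts in the cuticle, were too low to be tested, and of those that were tested Padi3, which citrullinates hair proteins, had the highest level. Padi3 measured 53.4, 19.6 and 73.1 CPM in WT 2, 3 and 4 and 85.0, 210 and 121 in iKO 3, 4 and 33, and it made up most of the summed level of the list, 32.2 to 76.3 CPM in WT and 101 to 215 in iKO. Of 14 such genes 3 were tested and none passed in edgeR: Padi3 (1.51, SE 0.52), S100a3, a calcium-binding protein of the cuticle (1.45, SE 0.47), and the keratin gene Krt32 (-1.46, SE 1.26). The first 2 had an unadjusted p under 0.05 and were called by DESeq2. Krt33b, Krt35 and Krt81 had no count in any library, and Krt82, a cuticle keratin gene, had 8 over all libraries.

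Partners of beta-catenin, whose signalling Sox factors can modulate, did not pass the test. Of 11 genes 9 were tested, 8 with higher and 1 with lower values (median 0.13), none past edgeR or DESeq2. Axin2, a feedback target, had the smallest p of the list (1.22, SE 0.46, unadjusted p = 0.0335). Tcf7l2, Tcf7 and Tcf7l1, DNA-binding partners of beta-catenin, stood at 0.26 (SE 0.33), 0.31 (SE 0.41) and 0.30 (SE 0.44). Lef1, the other DNA-binding partner, had 69 counts and was not tested; it measured 0.0461, 0.0127 and 0.0853 CPM in WT 2, 3 and 4 and 0.0959, 0.422 and 0.494 in iKO 3, 4 and 33, with groups that did not overlap.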

How the data were processed

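The authors deposited whole-number counts per gene symbol, not normalised. TopHat2, HTSeq, DESeq2, DESeq and mm10 are listed in the submitters' processing notes; their versions, the annotation and the strand setting: not given in the sources used here. HTSeq summary rows were left out. They held 34.8% to 35.5% of counts in the WT libraries and 27.4% to 32% in the iKO libraries. Most were alignments that were not unique, 29.5% to 30.5% in WT and 21.7% to 26.5% in iKO. Both shares thus split with the label without overlap, and their part in any difference reported here was not tested. The deposited comparison table holds normalised mean signal, log2 fold changes, their SE, a Wald score and p-values, per the file headers. Columns were matched to titles by number; the column numbered 33 matches no title and was used as an iKO replicate. No replicate pair agreed within sampling noise (chi-square per degree of freedom of 51.7 or more).

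Counts were fitted in R 4.3.3 with edgeR 4.0.16 (filterByExpr, minimum count 10, TMM, glmQLFit robust, glmQLFTest, two-sided, group as the only term), adjusted over 12672 genes at 0.05. The procedure was run on data simulated from this same fit, with changes planted only in better-expressed genes. That run cannot show where the model fails and does not cover genes at low counts. SE is the absolute log2 fold change over the square root of F. Log2 CPM used a prior count of 2. DESeq2 1.42.0, limma 3.58.1 voom, other scalings and filters, a replicate block and leaving out libraries were alternatives. Lengths and positions come from GENCODE M21 (93.0% of symbols found), promoters from RefSeq. Named genes were the 10 members, other Sox genes with counts, the 5 nearest to Sox21 (mean log2 CPM of at least 1, predicted models left out), its neighbours, and up to 4 tested genes per list with the smallest p; list genes named for a low count, no test or their share of a sum were chosen after their values were seen. The members and lists were chosen with earlier results of these data known.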

Additional observations from a re-analysis of the deposited data

How the results depend on the processing

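Direction held under all alternatives for Sox21, Sox2, Sox4, Sox5, Sox6, Sox12 and Sox13. Sox21 kept its call under 7 of 16 alternatives and lost it with upper-quartile scaling (-1.59, adjusted p = 0.0579), without genes of chromosomes X and Y (-1.60, adjusted p = 0.0536), in the 4 libraries numbered 3 and 4 without a block (-1.71, adjusted p = 0.458) and without any single library (-1.81 to -1.47); the last 3 kinds test other genes or fewer libraries, and the fits on chromosomes and on 4 libraries were chosen after seeing the data. The count of called genes, 43, was 76 with no filter on low counts, 757 in DESeq2, 4 in the 4 libraries without a block and 7 to 31 without single libraries. The count among the 10 Sox genes, 1, was 3 in DESeq2, and 0 with upper-quartile scaling, without X and Y genes, in the 4 libraries without a block and without any single library (0 to 0). For the hair lineage factors, 0 became 2 with no filter, 1 at a minimum count of 30, 3 in DESeq2, 2 in limma-voom and 0 to 1 without single libraries. Reversals were small: Sox7 stood at -0.18 with the replicate block, at -0.43 in the 4 libraries without it and at -0.18 to 1.90 without single libraries; Sox11 at -0.43, -0.28 and -0.27 to 0.55 likewise; Sox9 ranged from -0.14 to 0.03 and Sox15 from -0.45 to 0.00 without single libraries. Their cause was not tested. At a minimum count of 30, Sox6, Sox7 and Sox13 were no longer tested. Other scalings moved the median of all genes from 0.01 to at most 0.02.

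Numbers 3 and 4 occur in both groups, but no source says that they mark a shared culture, so the replicate block is given only here: with it, in 4 libraries, 103 genes, 1 Sox gene (Sox21, -1.71, adjusted p = 0.0483) and 1 hair lineage factor were called. Deviations from the group mean correlated at 0.297 between the libraries numbered 3 and at 0.661 between those numbered 4, across genes, which are not independent replicates.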

Other observations

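The patterns closest to the other Sox genes, by the same measure as for Sox21, were looked up after their values were seen. Nearest to Sox2 were Sel1l3, the cholesterol exporter gene Abca1, Rab15, Pglyrp3 (a peptidoglycan recognition protein) and Tgm1 (the transglutaminase of the cornified envelope), with root mean square differences of 0.650 to 0.752. Tgm1 measured 32.0, 26.7 and 24.5 CPM in WT 2, 3 and 4 and 147, 66.4 and 83.1 in iKO 3, 4 and 33, and, like Sox2, was lowest among the iKO libraries in iKO 4. Among the 5 nearest to Sox6 was Ivl, the gene of the cornified envelope protein involucrin, which was at the WT level in iKO 4: it measured 35.3 to 64.5 CPM in WT and 111, 56.4 and 146 in iKO 3, 4 and 33. Edaradd, the adaptor of ectodysplasin signalling in the title of the study, was the third nearest to Sox12, with a root mean square difference of 0.197. Edaradd measured 14.0, 16.9 and 16.7 CPM in WT and 6.30, 8.00 and 8.55 in iKO, and Zfp367 and Sirpa, a zinc finger and a signal regulatory protein gene, stood at 0.186 and 0.177. Over 6 libraries of 2 groups, genes that differ between the groups by a like amount come out near each other by this measure.

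The remaining family members were at or near 0. Sox3 and Sox14 had no count in any library, Sox1 had 2 counts in all and Sox30 had 1, and Sry, the Y-linked founder of the family, had 3 counts in the WT group and 4 in the iKO group, which do not separate the groups as Ddx3y did.

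The other marker lists read beside the Sox genes had no member past edgeR. Of 8 melanocyte markers, cells in which Sox10 is a main regulator, 4 were tested (2 higher, 2 lower, median 0.10), none was called by DESeq2, and their sum was 6.08 to 11.9 CPM in WT and 5.72 to 8.46 in iKO, with Dct and Kit at 0. Mitf, the master regulator of melanocytes, had means of 4.78 CPM in WT and 2.24 in iKO, and Tyr, the gene of the pigment enzyme tyrosinase, 2.51 and 3.27. Of 8 fibroblast markers 2 were tested, both with slightly higher values (median 0.14) and called by neither tool, and their sum was 18.3 to 46.9 CPM in WT and 24.9 to 48.4 in iKO, nearly all of it Fbln1, with Dcn and Lum at 0. Of the 10 keratinocyte markers, 6 had lower and 4 higher values in iKO (median -0.12), 3 reached an unadjusted p under 0.05 and DESeq2 called 2 of them. Those 2 were Trp63, described above, and Cdh1, the E-cadherin gene, at 433 ± 13.0 CPM in WT and 635 ± 82.5 in iKO (SD, n = 3). Cdh1 had a log2 fold change of 0.55 (SE 0.12, edgeR adjusted p = 0.130). The remaining gene was the keratin gene Krt15, at 12.7 ± 5.08 CPM in WT and 5.23 ± 3.28 in iKO, with overlapping groups. Its log2 fold change was -1.28 (SE 0.49, edgeR adjusted p = 0.289).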
